A study of Mus musculus with 36 samples.

Results

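The 9 genes described here, Ren1, Agt, Ace, Agtr1a, Atp6ap2, Enpep, Anpep, Mme and Bdkrb2, encode parts of the renin-angiotensin and kinin systems of the kidney. They were chosen by name for their role, with earlier results of these data known, and all 9 are among the 15730 genes of the count table. Total RNA of mouse kidney cortex, depleted of ribosomal RNA, was sequenced in 36 libraries, 6 in each of 6 groups. All groups were male mice without apolipoprotein E (ApoE−/−) on a C57BL/6 background, so no group has a normal Apoe gene. Of these groups, 3 were nondiabetic, and the diabetic groups had received streptozotocin, which destroys the insulin-producing beta cells, as 5 daily injections of 55 mg/kg from 6 weeks of age. Within each state, 1 group received the vehicle, ethanol at 0.1%, 1 received lipoxin A4 (LXA4) at 5 µg/kg and 1 received benzo-LXA4, a synthetic analog with a benzene ring in the lipoxin backbone, at 1.7 µg/kg. Injections were intraperitoneal, 2 times a week. In the intervention design given in the labels, mice were followed for 16 weeks and treated between weeks 10 and 16, although the labels do not state outright that these libraries come from that design. Replicates carry the numbers 1 to 6 in the labels, without a statement that different numbers are different mice, so p-values measure only the spread between these samples, and part of it may be technical. As models, these are mice whose insulin deficiency was induced by a toxin, on a background prone to atherosclerosis.

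In the renin-angiotensin system, renin cuts angiotensinogen to angiotensin I, angiotensin-converting enzyme (ACE) turns this into angiotensin II, and angiotensin II acts mainly through the type 1 receptor to constrict vessels and retain sodium. Aminopeptidases and neprilysin trim angiotensins to shorter peptides, and ACE and neprilysin also break down bradykinin, which relaxes vessels through the B2 receptor. Renin is secreted by granular cells of the afferent arteriole, while the proximal tubule carries angiotensinogen, ACE and the peptidases on its brush border or in its cells, and the system is the target of the drugs most used against diabetic kidney disease.

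The promoters of the genes that differed most with diabetes, angiotensinogen (Agt), ACE (Ace) and the B2 receptor (Bdkrb2), are printed because these genes have different core promoters, and that of aminopeptidase N (Anpep) because the study's title names the transcription factor EGR1. Each is the 250 bases before the annotated start in RefSeq on GRCm38.p6, 5′ to 3′ on the gene's strand. Capitals mark matches on either strand to any of 4 motifs. The letters searched for the TATA box, which places the start of transcription, were TATAAA. For the GC box, bound by factors of the SP family, they were GGGCGG. For the EGR1 site they were GCGNGGGCG, and for the cyclic AMP response element TGACGTCA. The windows are chr8:124569707-124569956 on the minus strand for Agt, chr11:105967698-105967947 on the plus strand for Ace, chr12:105562922-105563171 on the plus strand for Bdkrb2 and chr7:79848211-79848460 on the minus strand for Anpep.
Agt: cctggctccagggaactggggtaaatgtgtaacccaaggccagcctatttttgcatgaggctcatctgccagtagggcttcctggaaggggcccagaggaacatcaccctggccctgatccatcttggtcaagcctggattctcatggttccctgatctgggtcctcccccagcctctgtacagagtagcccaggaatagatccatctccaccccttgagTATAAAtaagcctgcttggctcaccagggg
Ace: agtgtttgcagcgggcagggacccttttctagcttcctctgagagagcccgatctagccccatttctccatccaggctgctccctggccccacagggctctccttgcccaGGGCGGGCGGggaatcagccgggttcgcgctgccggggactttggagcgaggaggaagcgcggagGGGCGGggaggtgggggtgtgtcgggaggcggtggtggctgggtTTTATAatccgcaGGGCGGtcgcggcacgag
Bdkrb2: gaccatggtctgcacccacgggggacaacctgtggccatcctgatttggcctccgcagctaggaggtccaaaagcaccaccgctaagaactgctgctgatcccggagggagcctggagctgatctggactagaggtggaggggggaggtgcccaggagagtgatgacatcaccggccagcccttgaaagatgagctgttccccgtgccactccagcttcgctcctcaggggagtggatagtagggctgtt
Anpep: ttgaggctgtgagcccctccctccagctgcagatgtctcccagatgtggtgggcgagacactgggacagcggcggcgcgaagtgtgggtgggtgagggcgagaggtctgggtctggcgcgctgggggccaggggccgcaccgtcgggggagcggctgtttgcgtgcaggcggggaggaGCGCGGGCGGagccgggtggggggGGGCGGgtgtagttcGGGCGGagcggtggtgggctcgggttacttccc
Agt has a TATA box 30 bases before its start. The Ace window, the first of 2 listed for the gene, has 4 GC boxes and, read on the opposite strand, a TATA box match 31 bases before the start. The Bdkrb2 window holds none of the 4 motifs in these letters. Anpep has 3 GC boxes and an EGR1 site match 72 bases before the start, which overlaps the first of the GC boxes. This window lies inside the Anpep gene interval given below, whose 5′ end is at chr7:79861059. Which start of Anpep the cortex uses was not tested. Of 32851 promoter windows of this length from 27025 genes, 12.4% held the TATA box, 32.7% the GC box, 4.7% the EGR1 site and 1.55% the cyclic AMP response element. RefSeq windows were found for 8 of the 9 genes. Ren1, with a TATA box at 29 bases, and Enpep, with one at 52 bases on the opposite strand, are the other members with a TATA box match, and Mme and Atp6ap2 are the others with a GC box. Anpep alone of the 8 held the EGR1 letters and none held those of the cyclic AMP response element. A match is only a run of letters and says nothing of binding.

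Library totals ran from 8896193 to 43305005 counts. In 34 libraries structural RNA took at most 6.81% of counts, but it took 17.7% in nondiabetic vehicle replicate 3 and 56.9% in diabetic LXA4 replicate 6, so the calls of the members are also given without them. Diabetic LXA4 replicate 6 also had the highest summed level of 6 fibroblast markers, 707 CPM (counts relative to the scaled library total), where the others had 79.0 to 223. Markers of the kidney cortex were present in every library: the 12 proximal tubule markers summed to 13245 to 24114 CPM, the 6 markers of loop of Henle and distal tubule to 3285 to 6602 CPM and the 7 podocyte markers to 243 to 410 CPM. Of 6 adrenal markers only Star was measured, at 0.895 to 2.52 CPM. Apoe, the gene all mice lack in functional form, had 2.15 ± 0.462 CPM in nondiabetic vehicle libraries (SD, n = 6) and group means of 2.14 to 2.65 CPM in the others. The cortex is a mixture of cells, so fewer cells of a type and less RNA per cell cannot be told apart in any result here.

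Per kilobase of exon, 8 of the 9 genes lay in the upper part of all measured genes and Bdkrb2 near the bottom. Over the 36 libraries the mean level was 26.7 ± 4.09 CPM per kb (SD) for Anpep, 26.5 ± 8.37 for Ace, 25.3 ± 2.69 for Atp6ap2, 24.6 ± 3.66 for Enpep and 21.6 ± 4.10 for Agtr1a. The SDs of these neighbours overlapped, and differences between genes were not tested. Agt followed at 16.1 ± 5.42 CPM per kb, Ren1 at 12.5 ± 5.65 and Mme at 12.1 ± 2.53, which again overlapped. Bdkrb2, at 0.326 ± 0.156 CPM per kb, stood below every other member, at the 9.41 percentile of all genes with a gene model, where the others lay between the 78.5 percentile (Mme) and the 91.4 percentile (Anpep). The libraries varied most for Bdkrb2 and Ren1, with coefficients of variation of 47.8% and 45.1%, and least for Atp6ap2, with 10.6%.

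**Figure D1:**
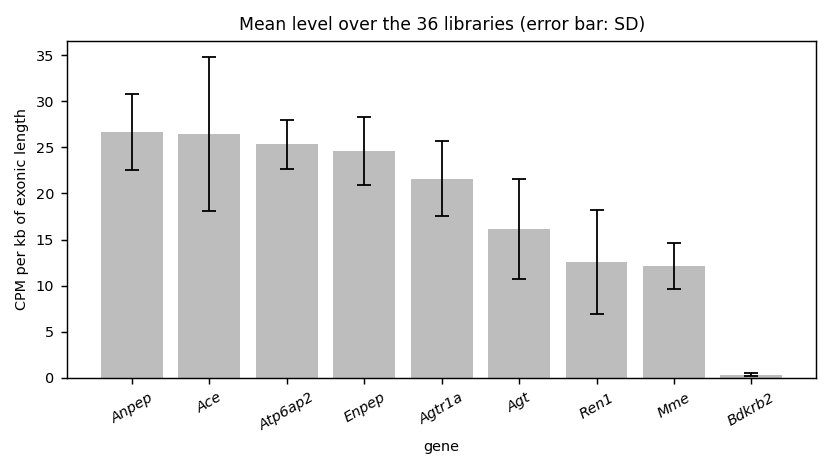
Bars give the mean level of each gene over the 36 libraries, in CPM per kb of exonic length, and error bars the SD. The first 5 genes, from Anpep to Agtr1a, lie between 21.6 and 26.7 CPM per kb and Bdkrb2 lies at 0.326.

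Averaged over vehicle, LXA4 and benzo-LXA4, the substrate gene Agt and the receptor gene Bdkrb2 were higher in diabetes and Ace was lower. Of Agt, Bdkrb2 and Ace, only Bdkrb2 was called under each treatment. The renin, aminopeptidase and neprilysin genes did not pass the test. Diabetic and nondiabetic libraries were compared within vehicle, within LXA4 and within benzo-LXA4, which share no libraries, and as the mean of these 3 differences. A gene was called at an adjusted p under 0.05 in edgeR's quasi-likelihood test, with Benjamini-Hochberg adjustment over the 15726 genes tested. Under vehicle 2 of the 9 genes were higher and 0 lower, where 5.6% of all genes were called, 3.44% higher and 2.16% lower. Under LXA4 1 was higher and 3 lower, where 27.7% of all genes were called, 15.4% higher and 12.3% lower. Under benzo-LXA4 1 was higher and 0 lower, against 4.06% of all genes, 2.81% higher and 1.25% lower. As the mean of the 3 differences, 2 were higher and 2 lower, against 35.4% of all genes, 18.8% higher and 16.6% lower. The 0 counts of lower genes are from edgeR. At an unadjusted p under 0.05, 3 members passed under vehicle and 2 under benzo-LXA4 in either direction, and DESeq2 called 3 and 2 members there and limma voom 3 and 3. The shares of members called under LXA4 and in the mean are not far from those of all genes. The median log2 difference of the 9 genes was 0.12 under vehicle, −0.22 under LXA4 and −0.09 under benzo-LXA4, beside −0.01, 0.05 and −0.01 for all genes.

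**Figure D2:**
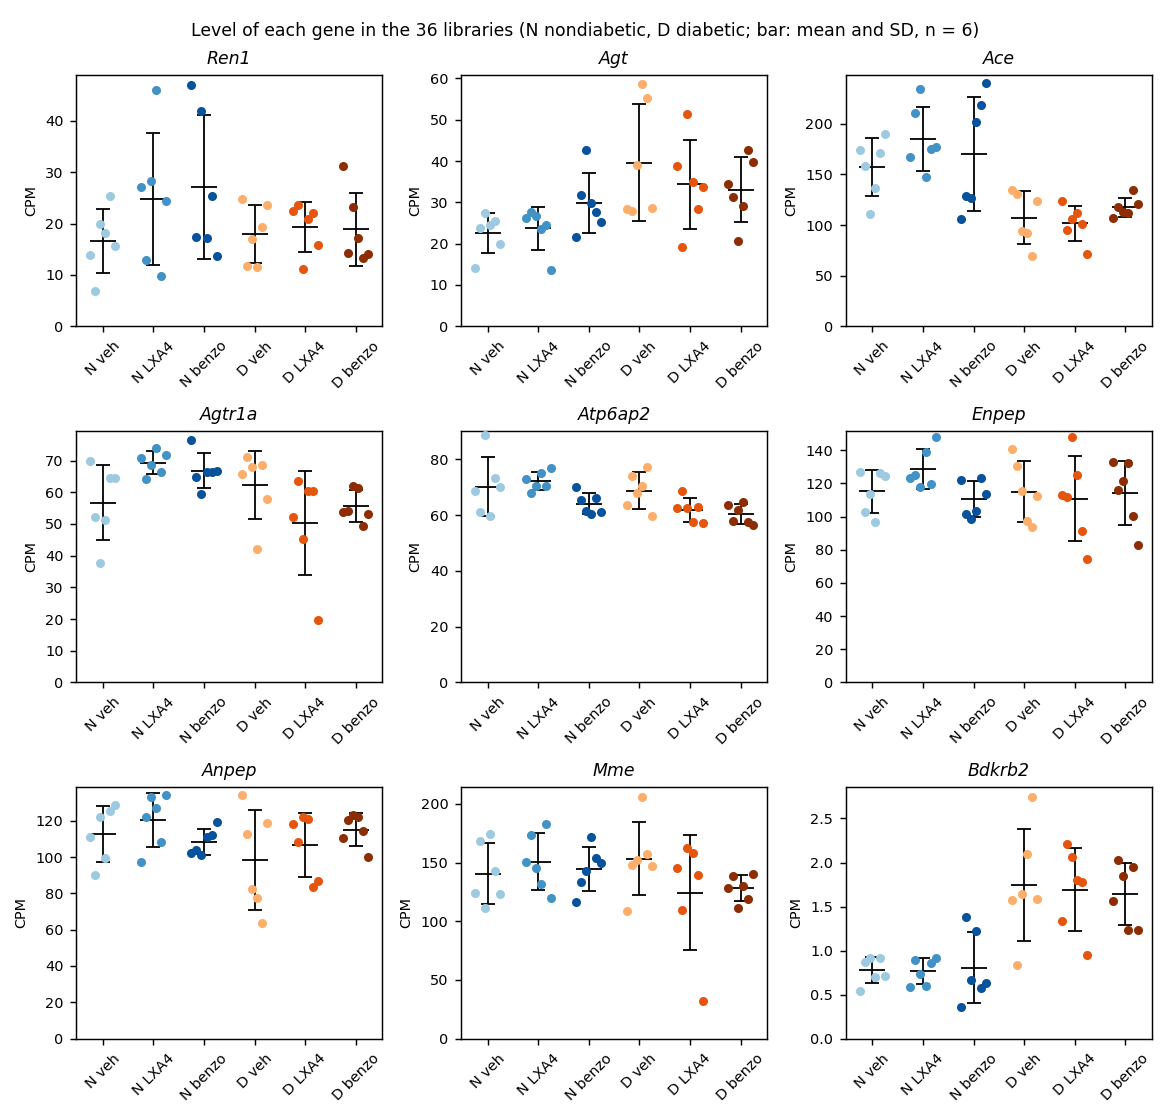
Each point is 1 library, in CPM, with 1 panel for each gene and the groups in the order nondiabetic (N) and diabetic (D) with vehicle, LXA4 and benzo-LXA4; the bars give the mean and SD of 6 libraries. The means of Agt and Bdkrb2 are higher and that of Ace lower in each diabetic group than in its nondiabetic counterpart. The Agt difference was not called under LXA4 or benzo-LXA4. A single diabetic LXA4 library is lowest for Agtr1a at 19.6 CPM and for Mme at 31.9 CPM.

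Agt encodes angiotensinogen, the only known substrate of renin (ENSMUSG00000031980, chr8:124556534-124569706, minus strand, GRCm38). In nondiabetic vehicle libraries its lowest, median and highest levels were 14.2, 24.1 and 27.5 CPM, and in diabetic vehicle libraries they were 27.9, 33.8 and 58.7 CPM. The 2 groups did not overlap, and diabetic vehicle replicates 4 and 5 were the highest libraries of the series, at 58.7 and 55.2 CPM. Agt was 1.77-fold higher in diabetes under vehicle (log2 0.82 ± 0.22 SE, adjusted p = 0.0233, 6 of 6 libraries above the nondiabetic mean). This call was lost without any 1 of nondiabetic vehicle replicates 1 and 6 and diabetic vehicle replicates 4 and 5 (adjusted p = 0.0609 to 0.0928). With both libraries rich in structural RNA left out, the value was log2 0.88 (adjusted p = 0.0179).
In the LXA4 groups, Agt ran from 13.6 through a median of 25.3 to 27.8 CPM without diabetes and from 19.1 through 34.4 to 51.3 CPM with it. With benzo-LXA4 the same values were 21.6, 28.8 and 42.7 CPM without diabetes and 20.7, 32.8 and 42.6 CPM with it. The groups overlapped in both, and neither difference passed, at log2 0.54 (95% interval 0.09 to 0.99, adjusted p = 0.0661) and log2 0.15 (−0.30 to 0.59, adjusted p = 0.796). Under LXA4 it was called in 3 of 9 other settings of the analysis (adjusted p = 0.0123 to 0.112). As the mean of the 3 differences Agt was 1.42-fold higher in diabetes (log2 0.50 ± 0.13 SE, adjusted p = 0.00266, 16 of 18 diabetic libraries above the nondiabetic mean), and without the 2 libraries rich in structural RNA the value was log2 0.52 (adjusted p = 0.00205).

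Ren1 encodes renin, the protease that starts the cascade (ENSMUSG00000070645, chr1:133350510-133360325, plus strand). Its levels ran from 6.93 through a median of 16.9 to 25.4 CPM in nondiabetic vehicle libraries and from 11.6 through 18.2 to 24.7 CPM in diabetic vehicle libraries. The diabetic range lay within the nondiabetic one. In nondiabetic mice given LXA4 it ran from 9.86 to 46.1 CPM and in those given benzo-LXA4 from 13.7 to 47.0 CPM, and the 3 highest libraries of the series, at 41.9, 46.1 and 47.0 CPM, were in these groups. The diabetic treated groups ran from 11.1 to 31.3 CPM. The diabetes difference was log2 0.12 under vehicle (95% interval −0.56 to 0.79) and −0.25 in the mean (−0.64 to 0.14, adjusted p = 0.318), so an increase or decrease of modest size was not detectable given this spread.

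Atp6ap2 encodes the (pro)renin receptor, also an accessory subunit of the vacuolar proton pump (ENSMUSG00000031007, chrX:12587801-12617049, plus strand). It was the steadiest member. Nondiabetic vehicle libraries had 59.7, 69.3 and 88.7 CPM as lowest, median and highest, and diabetic vehicle libraries 59.6, 69.1 and 77.2 CPM, a nearly equal pair of ranges. With LXA4 the values were 68.0, 71.7 and 76.9 CPM without diabetes and 57.1, 62.6 and 68.5 CPM with it, so that the ranges only just overlapped. With benzo-LXA4 they were 60.4, 63.5 and 70.2 CPM without and 56.5, 60.0 and 64.8 CPM with diabetes. Atp6ap2 fell in diabetes under LXA4, to 0.857 of its nondiabetic level (log2 −0.22 ± 0.07 SE, adjusted p = 0.0233, 6 of 6 libraries below the nondiabetic mean), and in the mean of the 3 differences, to 0.925 (log2 −0.11 ± 0.04 SE, adjusted p = 0.0370, 15 of 18 libraries). The first call was lost without nondiabetic LXA4 replicate 6 (adjusted p = 0.0545) or diabetic LXA4 replicate 4 (adjusted p = 0.0536), and with a mean of at least 5 CPM required of each gene (adjusted p = 0.0608). The second was lost without any 1 of 14 libraries, at adjusted p = 0.0515 to 0.0635, and with that minimum (adjusted p = 0.142). Without both libraries rich in structural RNA the values were log2 −0.21 (adjusted p = 0.00971) under LXA4 and −0.08 (adjusted p = 0.0496) in the mean, and the difference under vehicle, not called either way, went from log2 −0.03 to 0.05.

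Ace encodes angiotensin-converting enzyme, a peptidase of endothelium and brush border (ENSMUSG00000020681, chr11:105967945-105989964, plus strand). In nondiabetic vehicle libraries the lowest, median and highest levels were 111, 165 and 190 CPM, and in diabetic vehicle libraries 69.1, 109 and 135 CPM. With LXA4 they were 147, 176 and 234 CPM without diabetes and 71.5, 104 and 124 CPM with it, and with benzo-LXA4 106, 165 and 240 CPM without and 107, 115 and 134 CPM with diabetes. All 18 diabetic libraries lay below the nondiabetic mean, and under LXA4 the 2 groups did not overlap.
Ace was at 0.550 of its nondiabetic level in diabetes under LXA4 (log2 −0.86 ± 0.18 SE, adjusted p = 7.89e-04) and at 0.638 in the mean of the 3 differences (log2 −0.65 ± 0.10 SE, adjusted p = 1.01e-05). Without the 2 libraries rich in structural RNA these were log2 −0.79 (adjusted p = 9.48e-04) and −0.65 (adjusted p = 4.89e-06). Under vehicle (log2 −0.55 ± 0.17 SE, adjusted p = 0.0556) and benzo-LXA4 (log2 −0.54 ± 0.17 SE, adjusted p = 0.0761) it was not called. The differences under vehicle and benzo-LXA4 passed without the 2 libraries rich in structural RNA, at adjusted p = 0.0194 and 0.0278, with DESeq2 (0.0306 and 0.0397) and with limma voom (0.00810 and 0.00504). Under vehicle it also passed without any 1 of nondiabetic replicates 3 and 4 and diabetic replicates 1 and 2 (adjusted p = 0.0328 to 0.0478), and under benzo-LXA4 without nondiabetic replicate 1 or 3 (0.0301 and 0.0490).
Markers of the proximal tubule were also followed in diabetes. All 12 were measured and none was at 0 in any library. Of these, 0 were higher and 2 lower under vehicle, and 0 higher and 6 lower under LXA4. Under benzo-LXA4 0 were higher and 0 lower, and in the mean of the 3 differences 0 were higher and 9 lower. The medians were log2 −0.35, −0.48, −0.20 and −0.34 in that order. Of all genes 2.16%, 12.3%, 1.25% and 16.6% were lower. Under vehicle 1 of the 12 markers had a log2 difference above 0, and under LXA4, under benzo-LXA4 and in the mean 0 had. The 0 counts are from edgeR. Their summed level ran from 16254 to 24114 CPM in nondiabetic vehicle, 20985 to 23612 CPM in nondiabetic LXA4 and 17193 to 21771 CPM in nondiabetic benzo-LXA4 libraries. In the diabetic libraries it ran from 13245 to 19072 CPM with vehicle, 13923 to 19173 CPM with LXA4 and 13568 to 18817 CPM with benzo-LXA4. The 12-marker sum correlated with Ace over the 36 libraries at r = 0.68, and at 0.31 once group means were removed. Of the 5 markers of the last, straight segment (S3), 1 was lower under vehicle, 3 under LXA4, 0 under benzo-LXA4 and 3 in the mean. Their medians were log2 −0.54, −0.45, −0.46 and −0.50 in that order. Their sum correlated with Ace at r = 0.77, and at 0.56 once group means were removed. Other marker sums also varied with Ace. In the same order, r was −0.78 and −0.55 for smooth muscle, pericytes and mesangium and −0.25 and −0.57 for endothelium. It was −0.57 and −0.50 for fibroblasts, −0.53 and −0.40 for podocytes and −0.50 and −0.47 for the collecting duct. These libraries share the diabetes contrast and the composition of each piece of cortex. The part of these markers in the Ace result was not tested.

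Enpep (aminopeptidase A, which removes the first residue of angiotensin II; ENSMUSG00000028024, chr3:129269175-129332720, minus strand) and Anpep (aminopeptidase N, which shortens angiotensin III; ENSMUSG00000039062, chr7:79821803-79861059, minus strand) are brush border enzymes. Enpep ran from 74.6 to 148 CPM over all libraries and Anpep from 63.4 to 134 CPM, and diabetic and nondiabetic groups overlapped in every comparison. The diabetes difference in the mean was log2 −0.06 for Enpep (95% interval −0.20 to 0.09, adjusted p = 0.582) and −0.09 for Anpep (−0.25 to 0.06, adjusted p = 0.348). Neither gene passed in any single comparison either.
Mme encodes neprilysin, which makes angiotensin 1-7 and degrades bradykinin and natriuretic peptides (ENSMUSG00000027820, chr3:63241537-63386030, plus strand). It was at 31.9 CPM in diabetic LXA4 replicate 6 and ran from 109 to 206 CPM in the other libraries. The diabetes difference in the mean was log2 −0.11 (95% interval −0.34 to 0.13, adjusted p = 0.509).

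Agtr1a encodes the type 1a angiotensin receptor, the main type 1 receptor of the mouse kidney (ENSMUSG00000049115, chr13:30336441-30382867, plus strand). Nondiabetic vehicle libraries had 37.8, 58.4 and 69.9 CPM as lowest, median and highest, and diabetic vehicle libraries 42.2, 66.8 and 71.1 CPM. With LXA4 the values were 64.3, 69.7 and 74.1 CPM without diabetes and 19.6, 56.3 and 63.5 CPM with it, so these groups did not overlap. With benzo-LXA4 they were 59.4, 66.5 and 76.6 CPM without and 49.5, 53.9 and 62.0 CPM with diabetes, with a small overlap.
Agtr1a was at 0.734 of its nondiabetic level in diabetes under LXA4 (log2 −0.45 ± 0.16 SE, adjusted p = 0.0361, 6 of 6 libraries below the nondiabetic mean). The library at 19.6 CPM is the one in which structural RNA took 56.9% of counts. Without it the difference was log2 −0.29 (adjusted p = 0.0556), and without both libraries rich in structural RNA it was log2 −0.30 (adjusted p = 0.0220). The call was also lost without any 1 of nondiabetic LXA4 replicates 1, 3, 4 and 6 or diabetic LXA4 replicate 3 (adjusted p = 0.0502 to 0.0684). Under benzo-LXA4 it was not called (log2 −0.26, adjusted p = 0.421), but it was in 2 of 9 other settings of the analysis (adjusted p = 0.0277 to 0.495). In the mean of the 3 differences Agtr1a was not called with all libraries (log2 −0.19, adjusted p = 0.101) and was lower without those 2 (log2 −0.18, adjusted p = 0.0144).

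Bdkrb2 encodes the constitutive bradykinin B2 receptor (ENSMUSG00000021070, chr12:105563226-105595237, plus strand). It was the least abundant member, with 4 to 82 counts per library, so its values carry more counting error than the others. Without diabetes the lowest, median and highest levels were 0.541, 0.794 and 0.915 CPM with vehicle, 0.583, 0.798 and 0.916 CPM with LXA4 and 0.361, 0.649 and 1.38 CPM with benzo-LXA4. In diabetes they were 0.839, 1.61 and 2.74 CPM with vehicle, 0.945, 1.79 and 2.21 CPM with LXA4 and 1.23, 1.71 and 2.02 CPM with benzo-LXA4. Each of the 18 diabetic libraries exceeded the mean of the nondiabetic ones, and the LXA4 groups did not overlap.
Bdkrb2 was the member with the largest difference, 2.29-fold higher in diabetes under vehicle (log2 1.20 ± 0.26 SE, adjusted p = 0.00446), 2.28-fold under LXA4 (log2 1.19 ± 0.25 SE, adjusted p = 0.00118) and 2.06-fold under benzo-LXA4 (log2 1.04 ± 0.25 SE, adjusted p = 0.0135). In the mean of the 3 it was 2.21-fold higher (log2 1.14 ± 0.15 SE, adjusted p = 5.92e-07). Each of the 4 calls was also made in every fit without 1 library. Diabetic LXA4 replicate 6 had only 4 counts, and without both libraries rich in structural RNA the difference was log2 1.25 under LXA4 (adjusted p = 4.67e-04), 1.24 under vehicle (adjusted p = 0.00354), 1.04 under benzo-LXA4 (adjusted p = 0.00692) and 1.18 in the mean (adjusted p = 3.67e-07).
Some markers of smooth muscle, pericytes and mesangium were also higher in diabetes. Of 10 such markers, all measured, 1 was higher under vehicle, 4 under LXA4, 0 under benzo-LXA4 and 6 in the mean. In edgeR 0 were lower. The medians were log2 0.40, 0.48, 0.09 and 0.34 in that order, and 10, 9, 6 and 10 markers lay above 0. Of all genes 3.44%, 15.4%, 2.81% and 18.8% were higher. Cnn1 was at 0 in at least 1 library. Their summed level ran from 151 to 187 CPM in nondiabetic vehicle, 148 to 188 CPM in nondiabetic LXA4 and 170 to 233 CPM in nondiabetic benzo-LXA4 libraries, and from 191 to 258, 203 to 248 and 183 to 244 CPM in the diabetic groups in the same order. Over 36 libraries the sum correlated with Bdkrb2 at r = 0.63, and at 0.10 once group means were removed. Other marker sums also varied with Bdkrb2. In the same order, r was −0.68 and −0.31 for the proximal tubule and −0.63 and −0.25 for its S3 segment. It was 0.38 and 0.37 for the collecting duct and 0.12 and 0.36 for the loop of Henle and distal tubule. The part of these markers in the Bdkrb2 result was not tested.

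**Figure D3:**
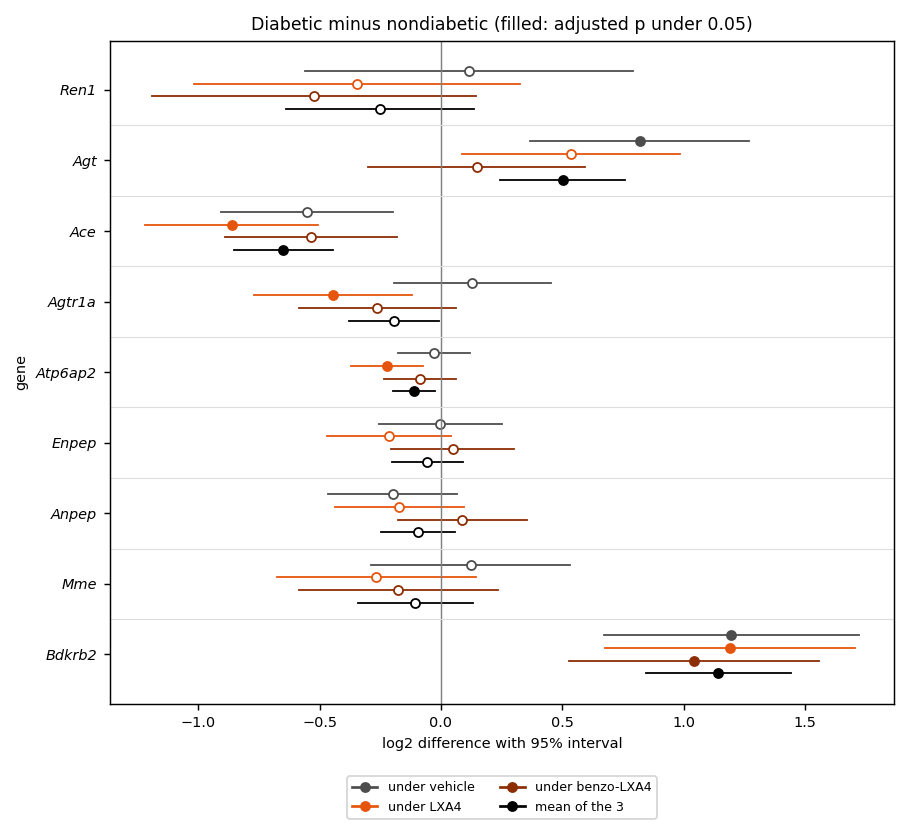
Points give the log2 difference, diabetic minus nondiabetic, with its 95% interval, for each gene under vehicle, LXA4 and benzo-LXA4 and as their mean; filled points have an adjusted p under 0.05. Bdkrb2 is filled in all 4, at 1.04 to 1.20, and Ace lies below 0 in all 4, at −0.54 to −0.86.

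None of the 9 genes passed the threshold for either compound. LXA4 and benzo-LXA4 were each compared with vehicle, once among diabetic and once among nondiabetic mice. The 2 comparisons in a state share the 6 vehicle libraries, and the doses differ, so the compounds are set side by side without a test between them. edgeR called 0 of the 9 genes in each of the 4 comparisons and in both tests of whether the diabetes difference changed with a compound, and DESeq2 and limma voom also called 0. Among all genes edgeR called 0.356% for LXA4 in diabetic mice and 0% for benzo-LXA4 in diabetic mice, for LXA4 in nondiabetic mice and for benzo-LXA4 in nondiabetic mice. The interaction with diabetes was called for 0.248% of genes with LXA4 and 0% with benzo-LXA4. At an unadjusted p under 0.05, 891, 967, 452 and 673 genes passed in the 4 comparisons with 0%, and DESeq2 called 52, 3, 2 and 0 and limma voom 105, 3, 0 and 0. At that unadjusted level 1, 1, 0 and 1 of the 9 genes passed in the comparisons with vehicle (LXA4 and benzo-LXA4 in diabetic mice, then in nondiabetic mice), and 1 in each interaction.
In diabetic mice Atp6ap2 was the member nearest to a call. Its group mean was 68.8 ± 6.52 CPM with vehicle, 61.9 ± 4.21 with LXA4 and 60.4 ± 3.49 with benzo-LXA4 (SD, n = 6). The differences from vehicle were log2 −0.15 (95% interval −0.30 to 0.00, adjusted p = 0.315) and −0.19 (−0.34 to −0.04, adjusted p = 0.689) in edgeR, with 6 of 6 libraries below the vehicle mean for each compound. The 2 genes that were higher in diabetes under vehicle had intervals around 0 for both compounds. For Agt the difference from vehicle in diabetic mice was log2 −0.21 with LXA4 (95% interval −0.65 to 0.24) and −0.27 with benzo-LXA4 (−0.71 to 0.18). For Bdkrb2 it was −0.01 (−0.51 to 0.49) and −0.10 (−0.58 to 0.39), and for Ace −0.07 (−0.43 to 0.28) and 0.13 (−0.22 to 0.48). These intervals are wide, and they include changes as large as 0.49 in either direction for Bdkrb2 with LXA4.
In nondiabetic mice the largest difference was that of Ren1, at 16.6 ± 6.21 CPM with vehicle, 24.8 ± 12.9 with LXA4 and 27.1 ± 14.1 with benzo-LXA4 (SD, n = 6). The log2 differences were 0.58 (95% interval −0.10 to 1.25, adjusted p = 0.856) and 0.71 (0.03 to 1.38, adjusted p = 1.00) in edgeR, and the groups overlapped. Among the interactions, Agtr1a with LXA4 was at log2 −0.58 (95% interval −1.03 to −0.12, adjusted p = 0.212) and Agt with benzo-LXA4 at −0.67 (−1.31 to −0.04, adjusted p = 1.00). So although Agtr1a was called in diabetes under LXA4 and not under vehicle, the test of that difference did not pass.

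**Figure D4:**
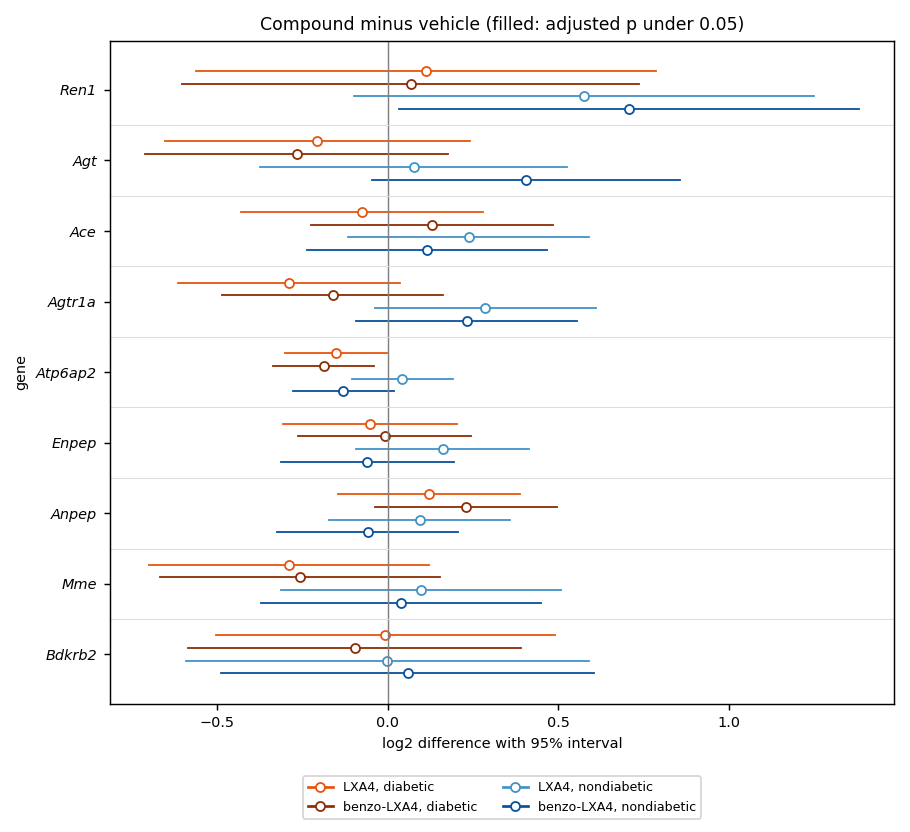
Points give the log2 difference from vehicle with its 95% interval, for LXA4 and benzo-LXA4 in diabetic and in nondiabetic mice, for each gene. No point is filled, since 0 of the 9 genes had an adjusted p under 0.05 in any of the 4 comparisons, and the largest difference is 0.71 for Ren1.

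Genes that work with these 9 were followed in 3 lists that leave the 9 out. The angiotensin list held mainly other angiotensin receptors, converting enzymes and peptidases, with a receptor-binding protein and genes of steroid hormone action. Of it 14 of 19 genes were measured. Of the kinin list (kininogens, kallikreins, kininases and their inhibitors) 14 of 17 were measured. Of the list of regulators of renin cells and the macula densa 19 of 21 were. In diabetes the angiotensin list had 0 higher and 0 lower under vehicle, 0 and 1 under LXA4, 0 and 0 under benzo-LXA4 and 0 and 2 in the mean. At an unadjusted p under 0.05 it had 1, 3, 1 and 4 genes in the same order, DESeq2 called 0, 1, 0 and 2 and limma voom 1, 3, 1 and 5. The kinin list had 0 higher and 2 lower, 0 and 0, 0 and 1, and 2 and 2, with 3, 3, 3 and 6 genes at an unadjusted p under 0.05, 3, 1, 2 and 4 called by DESeq2 and 4, 6, 3 and 7 by limma voom. The regulator list had 2 higher and 0 lower, 7 and 2, 1 and 0, and 4 and 4, with 7, 10, 2 and 9 at an unadjusted p under 0.05. Of all genes 5.6% were called under vehicle, 27.7% under LXA4, 4.06% under benzo-LXA4 and 35.4% in the mean, and the 8 of 19 regulators called in the mean are near that last share. The medians under vehicle were log2 0.01, 0.11 and 0.01 for the 3 lists, beside −0.01 for all genes. For both compounds and both interactions edgeR called 0 genes of any list, with at most 8 at an unadjusted p under 0.05 (regulators, LXA4 interaction), where DESeq2 called at most 2 and limma voom at most 1.
In the regulator list Nos1 and Gja5 were higher in diabetes. Nos1, the neuronal nitric oxide synthase of the macula densa, had means of 1.77 ± 0.311 CPM in nondiabetic and 2.75 ± 0.588 CPM in diabetic vehicle libraries (SD, n = 6). Its difference was log2 0.63 under vehicle (adjusted p = 0.0183), 1.48 under LXA4 (adjusted p = 2.67e-07) and 1.00 under benzo-LXA4 (adjusted p = 2.11e-04), and its groups did not overlap under either compound. Gja5 encodes connexin 40, which couples renin cells and endothelium, and had means of 3.38 ± 0.975 and 5.59 ± 0.906 CPM under vehicle. Its difference was log2 0.73 under vehicle (adjusted p = 0.00373) and 1.32 under LXA4 (adjusted p = 5.60e-07), and 0.46 under benzo-LXA4 (adjusted p = 0.0798). Without the 2 libraries rich in structural RNA the LXA4 values were 1.36 for Nos1 and 1.31 for Gja5, and Gja5 was also called under benzo-LXA4 (log2 0.45, adjusted p = 0.0481).
Under LXA4, the adenylyl cyclases Adcy5 (log2 0.77, adjusted p = 0.00132) and Adcy6 (0.32, adjusted p = 0.0104) and the connexin 37 gene Gja4 (0.68, adjusted p = 0.0143) were also higher in diabetes. Prkaca, a catalytic subunit of protein kinase A (log2 −0.27, adjusted p = 0.0231), and Nr1h3, the liver X receptor alpha gene (−0.35, adjusted p = 0.0369), were lower. Without the 2 libraries rich in structural RNA the values were 0.63, 0.22, 0.54, −0.19 and −0.52, all called. Gnas, the stimulatory G protein alpha subunit gene, was lower in the mean of the 3 differences (log2 −0.17, adjusted p = 0.0200).
Of the angiotensin list, Agtrap, which encodes a protein that binds the type 1 receptor and promotes its internalization, was lower under LXA4 (log2 −0.34, adjusted p = 0.00713) and in the mean (−0.22, adjusted p = 0.00173). Of the kinin list, Xpnpep3, an aminopeptidase of the X-prolyl family, was lower under vehicle (log2 −0.24, adjusted p = 0.0300) and benzo-LXA4 (−0.26, adjusted p = 0.0239), where its groups did not overlap. Ece1, endothelin-converting enzyme, which also cuts bradykinin, was lower under vehicle (log2 −0.30, adjusted p = 0.0451). Serping1, the C1 inhibitor that restrains plasma kallikrein, was higher in the mean (log2 0.37, adjusted p = 0.0190).

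Within groups, Enpep, Anpep and Agt varied with the tubule markers of the same library. The values below are correlations of log2 levels over 36 libraries, first as they are and then with group means removed. They describe libraries that share the diabetes contrast and the make-up of each piece of cortex, and have no test. Enpep went with the summed proximal tubule markers at 0.69 and 0.80, and Anpep at 0.66 and 0.73. Agt went against them at −0.73 and −0.60, and with the markers of loop of Henle and distal tubule at 0.56 and 0.80. Other sums varied with Agt too, at 0.56 and 0.60 for the collecting duct and −0.64 and −0.45 for the S3 segment. For fibroblasts r was 0.38 and 0.28, and for smooth muscle, pericytes and mesangium 0.55 and 0.16. With group means removed, the proximal tubule sum had r = 0.36 with Ren1, −0.31 with Bdkrb2 and −0.15 with Mme. Without the 2 libraries rich in structural RNA these were 0.35, −0.41 and −0.63. The same sum had r = 0.44 with Agtr1a and 0.40 with Atp6ap2, and 0.57 and 0.43 without those 2 libraries. The part of the proximal tubule markers in the Agtr1a and Atp6ap2 results was not tested. Removing the 2 libraries rich in structural RNA left the group-corrected values with the proximal tubule sum at 0.82 for Enpep, 0.72 for Anpep and −0.62 for Agt. That of Agt with the loop and distal tubule sum was 0.79, and with the fibroblast sum 0.48. Of the 6 loop and distal tubule markers edgeR called 0 in diabetes under vehicle, 0 under LXA4 and 0 under benzo-LXA4. In the mean of the 3 differences 1 was higher and 1 lower. Of all genes 5.6%, 27.7%, 4.06% and 35.4% were called. The medians were log2 −0.08, 0.06, 0.01 and 0.02 in that order, and under vehicle the markers ran from −0.62 (Pvalb) to 0.52 (Calb1). The part of the tubule markers in the Agt result was not tested.
For Mme and Agtr1a the values changed when both libraries rich in structural RNA were left out. With group means removed, Agtr1a and the fibroblast marker sum had r = −0.80 in 36 libraries and −0.17 in 34, and Mme and that sum −0.70 and 0.24. In the 34 libraries Mme went with the loop and distal tubule markers at 0.81 and Agtr1a went against them at −0.76. Ren1 had its closest relation to the podocyte markers, at 0.49 and 0.65. Among the members themselves the closest pair was Enpep and Anpep, at 0.67 and 0.70, followed on the uncorrected r by Agtr1a and Mme at 0.60 and 0.53, which became −0.65 with group means removed in 34 libraries. Ace and Anpep had 0.57 and 0.58, and 0.62 with group means removed in 34 libraries.

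**Figure D5:**
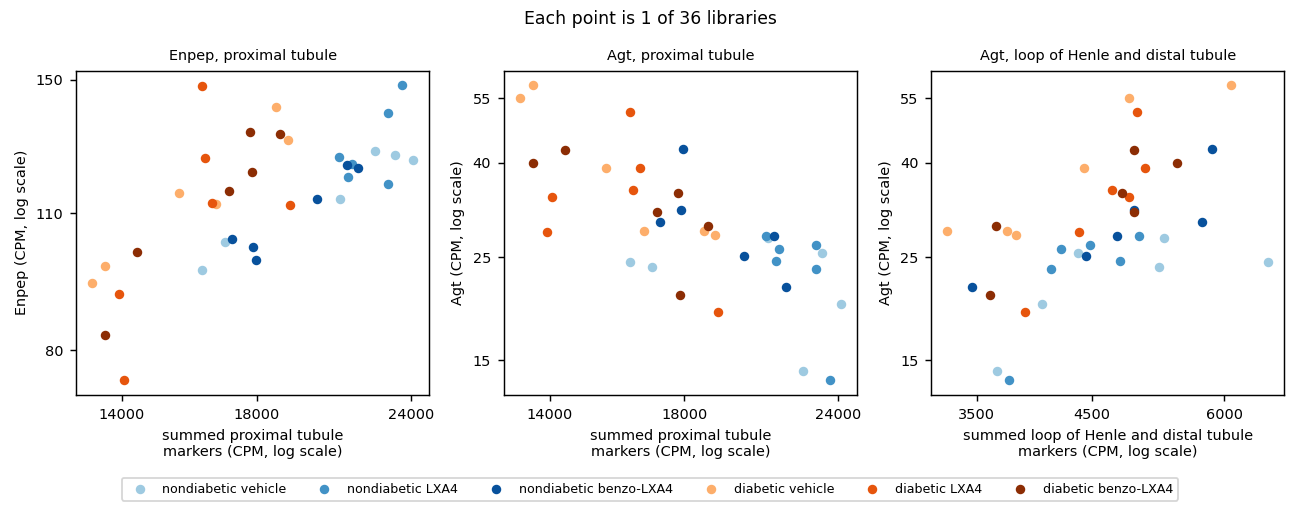
Each point is 1 of 36 libraries, coloured by group, with the summed tubule markers on the x axis and the level of Enpep or Agt on the y axis, in CPM on log scales. Enpep rises with the proximal tubule sum (r = 0.69), Agt falls with it (r = −0.73) and rises with the loop and distal tubule sum (r = 0.56).

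For the members called in any comparison, the genes with the most similar log2 levels over the 36 libraries were as follows, with Pearson's r as a description. Agt was closest to Smoc2 (0.86), Arg2 (0.86) and Gm8439 (0.83). Ace was closest to Acy3 (0.89), Lipo3 (0.89) and Ldhd (0.89), and kept r = 0.78, 0.87 and 0.77 with group means removed. Atp6ap2 was closest to Atp6v1c1 (0.86), which encodes a subunit of the same proton pump, Eif3m (0.85) and Copa (0.85). Bdkrb2 was closest to Samd5 (0.85), Ephx1 (0.84) and Eda2r (0.82), which fell to 0.63, 0.60 and 0.38 with group means removed. Agtr1a was closest to Gm19541 (0.93), Jak1 (0.92) and Tfpi2 (0.92), and to a lesser degree without the 2 libraries rich in structural RNA (0.80, 0.72 and 0.77).

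Gene models overlap 4 of the members: Gm11651 on the opposite strand of Ace, Gm48161 within Agtr1a, Gm42628 on the opposite strand within Enpep and Gm44974 within Anpep. None of these is in the count table. The overlaps are of whole gene spans, exons were not compared, and Gm48161 is annotated as intronic. The strand setting of the counting is not given in the sources used here. Whether reads of an overlapping gene entered the count of a member therefore cannot be told.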

How the data were processed

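Directional libraries were made from 200 ng of cortex RNA after removal of ribosomal RNA, per the labels' protocols. The deposited table gives whole-number counts per gene that the authors made with bcl2fastq 2.17.1.14, STAR and featureCounts on GRCm38, per the submitters' processing notes. Versions of STAR and featureCounts, the annotation and the strand setting were not given in the sources used here. Every gene in the table had at least 370 counts over all libraries. Column codes were read as C nondiabetic, D diabetic, E vehicle, L LXA4 and BL benzo-LXA4, and 0 columns were left unmapped. No libraries held identical counts (highest correlation 0.9931). Library totals (8896193 to 43305005) enter through the count model.

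Counts of all 36 libraries entered 1 fit of edgeR 4.0.16 (R 4.3.3; TMM factors, its low-count filter by group, quasi-likelihood F test, 2-sided), and p-values were Benjamini-Hochberg adjusted over 15726 genes in each of 10 comparisons. SEs and 95% intervals come from that fit. CPM are TMM-scaled, and log2 CPM used a prior count of 2. Levels per kb use exon lengths of GENCODE M21, which models 15697 of the genes. The steps were tested on simulated data. Promoters are RefSeq's (GRCm38.p6). The members and lists were chosen with earlier results of these data known. All 9 members are named, with up to 12 genes of the pathway lists by smallest p among those called, and for each called member the 3 genes with the highest correlation. Alternatives were DESeq2 1.42.0, limma 3.58.1 voom with quality weights, other scalings and filters, a replicate block, only the groups compared, and libraries left out.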

Additional observations from a re-analysis of the deposited data

Results flagged for a closer look

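Agt in nondiabetic LXA4 replicate 6 was at 13.6 CPM, where the other libraries of that group ran from 23.6 to 27.8 CPM. Its gap to the nearest library was 0.709 of the range of the group, above Dixon's 95% critical value for 6 samples. Of the 54 groups tested (9 genes in 6 groups) this was the 1 marked, where chance marks about 1 group in 20.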

How the results depend on the processing

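The number of the 9 genes called in diabetes depended on a few choices. Requiring a mean of at least 5 CPM left Bdkrb2 untested, and the counts became 1 under vehicle (2 in the reported fit), 0 under benzo-LXA4 (1) and 2 in the mean (4). Fitting only the groups compared gave 1 under vehicle, where Agt was lost (adjusted p = 0.0725), and 2 under benzo-LXA4, and it lost Agtr1a under LXA4 (adjusted p = 0.160). Under benzo-LXA4 DESeq2 gave 2, limma voom 3 and the fit without the 2 libraries rich in structural RNA 2. Leaving out 1 library at a time gave 1 to 3 under vehicle, 2 to 5 under LXA4 (2 without nondiabetic LXA4 replicate 6), 1 to 2 under benzo-LXA4 and 3 to 5 in the mean. In no alternative did a called member change direction, and no member was called for a compound or an interaction in any alternative. Other scalings moved the median log2 difference of all genes by less than 0.1 in each comparison.

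On average replicate numbers showed no pairing of the samples. Same-numbered libraries of different groups had a mean correlation of deviations of 0.00237 (−0.417 to 0.465) and different numbers 0.00154. Of the same-numbered pairs 29 of 90 were above 0.1, and 4 of 36 libraries were closest to their own number. A mean over all pairs cannot show a link limited to some numbers or groups. With the replicate block 2, 4, 1 and 4 members were called in the 4 diabetes comparisons, as without it, and 0 in the others. Among all genes it gave 28 in place of 56 for LXA4 in diabetic mice and 9 in place of 39 for its interaction.

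The background of all genes moved more. Under vehicle 881 genes were called, and 1329 with DESeq2, 2221 with limma voom, 442 with the 5 CPM minimum, 342 with only the groups compared and 1399 without the 2 libraries. Under LXA4 4353 became 6954 with limma voom and 2338 with only the groups compared. Under benzo-LXA4 638 became 1066, 2568, 313, 1875 and 1906 in the order given for vehicle. For LXA4 in diabetic mice 56 became 231 with DESeq2, 172 with limma voom, 1 with only the groups compared and 93 without the 2 libraries, and for its interaction 39 became 266, 211, 0 and 129, with 80 under the 5 CPM minimum. For benzo-LXA4 in diabetic mice 0 became 3 with only the groups compared and 48 without the 2 libraries. Leaving out 1 library gave 441 to 1338 genes under vehicle, 389 to 606 under benzo-LXA4 and 0 to 88 for LXA4 in diabetic mice. Depth limits Bdkrb2 most, with as few as 4 counts in a library.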

Other observations

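The kallikrein-kinin genes upstream of the B2 receptor, and the receptor for angiotensin 1-7, were chosen after their values were seen. Klk1, tissue kallikrein of the distal nephron, which frees kinin from kininogen, had 503 ± 124 CPM in nondiabetic and 424 ± 73.3 CPM in diabetic vehicle libraries (SD, n = 6), a difference of log2 −0.24 (adjusted p = 0.477 in edgeR). It was at log2 −0.47 in diabetes under LXA4 (adjusted p = 0.0533) and at 0.04 under benzo-LXA4 (adjusted p = 0.945), and the groups overlapped each time. Without the 2 libraries rich in structural RNA Klk1 was lower in the mean of the 3 differences (log2 −0.19, adjusted p = 0.0393), where with all libraries it was not called (log2 −0.23, adjusted p = 0.0980). Kng2, a kininogen gene, had 243 ± 55.1 CPM in nondiabetic and 262 ± 57.9 CPM in diabetic vehicle libraries, at log2 0.11 (adjusted p = 0.735). Mas1, the receptor for angiotensin 1-7, was at 1.29 ± 0.317 CPM in nondiabetic and 1.81 ± 0.686 CPM in diabetic vehicle libraries, at log2 0.52 (adjusted p = 0.306).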
